A study of Homo sapiens with 4 samples.

Results

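The opal stop codon UGA followed by a G at position +4, counted from the first nucleotide of the stop codon, was examined as a termination context in ribosome profiling libraries of HEK293T cells. Regions were taken where the normal termination codon (NTC) and its next nucleotide read UGAG, where the 3′UTR held at least 1 further termination codon in frame (3′TC), and where the first of these ended within 200 nt of the NTC. This rule uses sequence and length alone, and it gave 1437 of 9271 transcripts in the deposited tables (15.5%), each from a different gene. UGAG ended 1832 reading frames in all, 39.0% of the 4698 that end in UGA. Of these UGAG transcripts, 109 had no in-frame 3′TC and 286 had a longer region. The same limits gave 1105 transcripts for UGAA, 815 for UGAC and 546 for UGAU.

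A ribosome that meets a stop codon normally admits the release factor pair eRF1 and eRF3, which frees the finished protein. Less often a near-cognate tRNA is accepted in its place and the ribosome reads on into the 3′UTR until the next stop codon in its frame, which is termed readthrough. UGA is known as the leakiest of the stop codons, and the nucleotide that follows it modulates how often it fails. G418 (geneticin) is an aminoglycoside antibiotic whose binding site is the ribosomal decoding center, where it favors near-cognate tRNAs.

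HEK293T is a human embryonic kidney line that carries the simian virus large T antigen. There were 4 libraries, untreated A and B from cells without G418 (dose 0) and G418 A and B from cells kept for 24 h with 500 µg/mL, all of the same line and with no genetic change between the groups. Ribosome protected fragments (RPFs) on mRNAs numbered 2440204 to 6082600 per library, fewest in untreated replicate B. Of 7 genes fixed as HEK293T markers, 6 (VIM, KRT8, KRT18, NEFL, NEFM and LIN28B) were listed in every library and PAX2 in 2 of 4, while PTPRC, CD3E, ALB and HBB, markers of blood and liver cells, were listed in none and COL1A1 of fibroblasts in all 4.

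The readout is the ribosome readthrough score (RRTS), which sets the RPF density over the stretch that ends at the first in-frame 3′TC against the density on the coding sequence (CDS) and leaves out 6 nt after the NTC. The region before the first 3′TC was short, with a median of 69 nt and a range of 18 to 198 nt, and the 3′UTRs carried a median of 12 in-frame stop codons. In all, 1304 of the 1437 transcripts were listed in all 4 libraries. Of these, 1001 had enough mRNA reads in each condition (the study's minimum, about 130), as required for the values below, and their CDS density would place a median of 21.7 reads before the first 3′TC over both untreated libraries and 28.4 over both G418 libraries.

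The sequences that follow show the termination context, from 15 nt before the stop codon through position +15, of transcripts at both ends of the range described below. They are spliced mRNA sequence of GENCODE version 44 on hg38, and the capitals mark the stop codon and its +4 nucleotide. The first 4 had among the highest RRTS in G418, the next 4 among the lowest, CALCOCO2 was high in untreated cells and PHB had no read in them.
CIAO1: cggccugaaggccucUGAGcuaccucgacu
SF3B3: acccgcuacgccuucUGAGcccuccuuucc
COX5B: cagcagcuggcacacUGAGcaccugcacua
HNRNPAB: aacuacaagccauacUGAGgcggcagcagg
RPL23: cugcaauuacaagugUGAGccacugcaucc
RPL15: ucugucucccggguuUGAGcaauucuucug
S100A11: ucccagaagcggaccUGAGgaccccuuggc
AP2S1: cuacagucccuggagUGAGggcaggcgagc
CALCOCO2: uucugccacucucucUGAGuaucccaaccu
PHB: cuccagcugccccagUGAGggcccacccug

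On the genome (hg38), these stop codons lie in the last exon of the listed transcript. CIAO1 has its stop codon at chr2:96271349-96271351 on the plus strand (exon 7 of 7), SF3B3 at chr16:70571811-70571813 on the plus strand (exon 26 of 26), COX5B at chr2:97648106-97648108 on the plus strand (exon 4 of 4) and HNRNPAB at chr5:178210621-178210623 on the plus strand (exon 7 of 7). RPL23 ends at chr17:38847939-38847941 on the minus strand (exon 4 of 4), RPL15 at chr3:23921673-23921675 on the plus strand (exon 5 of 5), S100A11 at chr1:152032662-152032664 on the minus strand (exon 3 of 3) and AP2S1 at chr19:46838447-46838449 on the minus strand (exon 5 of 5). CALCOCO2 ends at chr17:48863003-48863005 on the plus strand (exon 13 of 13) and PHB at chr17:49404992-49404994 on the minus strand (exon 7 of 7).

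UGAG transcripts carried little readthrough in untreated cells and far more after G418. Their reads before the first 3′TC numbered 1069 and 452 in the untreated libraries A and B, against 10586 and 8847 in G418. Among UGAG transcripts that reached this minimum in a library, 61.6% and 68.8% had no such read in untreated A and B, against 15.9% and 17.0% in G418 A and B. For all stop codons the shares without a read were 54.8%, 65.3%, 16.3% and 17.9% in the same order. The median RRTS of UGAG transcripts was accordingly 0 in both untreated libraries, where readthrough of most single transcripts was not detectable at this depth, and 0.220 and 0.212 in G418.

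To give 1 value per library, reads before the first 3′TC were summed over the 1001 transcripts and divided by the reads that their CDS densities would place there. This aggregate RRTS of UGAG was 1.86% in untreated replicate A (95% exact Poisson interval 1.75% to 1.98%), 1.82% in untreated replicate B (1.65% to 2.00%), 19.8% in G418 replicate A (19.4% to 20.2%) and 19.7% in G418 replicate B (19.2% to 20.1%). The intervals cover counting error only. The groups did not overlap, and replicates of a condition lay within each other's intervals. The means were 1.84% ± 0.0327 and 19.7% ± 0.122 (SD, n = 2), a ratio of 10.7, with ratios of 10.6 and 10.8 within replicates A and B. An exact two-sided permutation test gave p = 0.33, the smallest that 2 libraries against 2 allow.

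**Figure D1:**
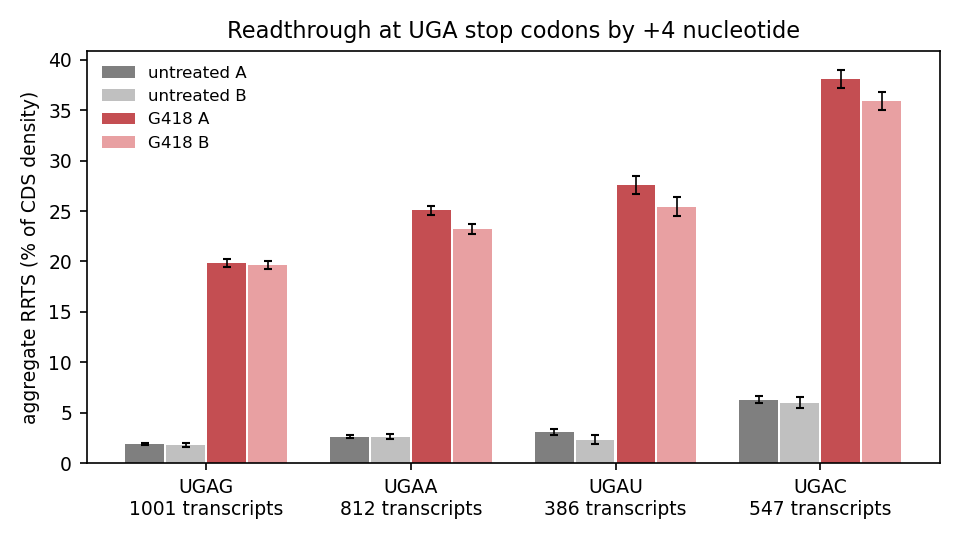
Aggregate RRTS, in percent of CDS density, for the UGA stop codon by its +4 nucleotide (x axis, with the number of transcripts). Each bar is 1 library and its whiskers are the 95% exact Poisson interval of its reads. Of these UGA contexts, UGAG had the lowest bar in each of the 4 libraries, near 1.84% in untreated and 19.7% in G418-treated cells.

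Of the UGA contexts, UGAG had the lowest aggregate RRTS in every library. All stop codons together, under the same limits, had 2.48% and 2.31% in untreated A and B and 19% and 18.1% in G418 A and B. The G418 means were 19.7% for UGAG, 24.1% ± 1.32 for UGAA, 26.5% ± 1.53 for UGAU and 37.0% ± 1.52 for UGAC (SD, n = 2). The untreated means were 1.84% for UGAG, 2.63% ± 0.000714 for UGAA, 2.69% ± 0.511 for UGAU and 6.13% ± 0.242 for UGAC. Within libraries, the log2 ratio of UGAG to UGAA averaged -0.40 ± 0.138 (SD over 4 libraries), that to UGAU averaged -0.48 ± 0.163 and that to UGAC averaged -1.32 ± 0.481. Each was below 0 in 4 of 4 libraries (exact two-sided sign-flip permutation test over libraries, p = 0.13 for each of 3 comparisons, the smallest that 4 libraries allow). Single transcripts overlapped widely. Of all pairs of 1 UGAG and 1 UGAC transcript, the UGAG member was lower in 69.5% and 65.9% in G418 A and B, and the shares were 58.6% and 56.1% against UGAA and 62.1% and 59.0% against UGAU. In untreated A and B, with pairs of equal values shared evenly between the directions, they were 65.6% and 59.0% against UGAC, 55.6% and 54.9% against UGAA, and 52.5% and 48.6% against UGAU.

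UGAG started lowest and its ratio of G418 to untreated was the highest of the UGA contexts, 10.7 against 9.17 for UGAA, 9.86 for UGAU and 6.03 for UGAC. The gap to UGAC was -1.76 and -1.71 on the log2 scale in untreated A and B, and -0.94 and -0.87 in G418 A and B. It was thus 0.83 narrower in G418, and the groups did not overlap (p = 0.33 in an exact two-sided permutation test, its lowest possible value). The gap to UGAA was 0.23 narrower in G418 (p = 0.33 in the same exact permutation test). The gap to UGAU differed by 0.11, less than the spread between untreated replicates (exact permutation p = 1), and its sign turned to -0.07 without untreated replicate A. Each of these comparisons shares the UGAG reads.

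Density over the whole rest of the 3′UTR was far lower than density before the first in-frame 3′TC. The 3′UTRs carried a median of 12 in-frame stop codons, so density over that rest does not measure termination at the first 3′TC alone. In the 1000 UGAG transcripts with sequence beyond it, over a median of 718.5 nt, the density after the 3′TC was 0.211% and 0.176% of CDS density in untreated A and B, and 0.683% and 0.664% in G418 A and B. As a share of the density before the 3′TC, this was 11.3% and 9.66% in untreated cells (mean 10.5% ± 1.16, SD, n = 2) and 3.44% and 3.37% in G418 (mean 3.41% ± 0.0466). Values after the 3′TC were below those before it in 4 of 4 libraries (exact sign-flip permutation p = 0.13, the smallest possible). The density after it was 3.48 times higher in G418 than in untreated cells, and the share of the preceding density did not overlap between the conditions (exact permutation p = 0.33, the smallest possible).

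For single genes, the analysis turned to 86 well measured UGAG transcripts, which reached the minimum of mRNA reads in every library and at least 100 reads expected before the first 3′TC in each G418 library. Their RRTS in G418 ran from 0 to 0.512 in replicate A, with a median of 0.163 and quartiles of 0.108 and 0.236. In replicate B it ran from 0 to 0.491, with a median of 0.165 and quartiles of 0.109 and 0.247. The order of genes was alike in both, with Pearson's r = 0.92 for log2 RRTS over the 81 transcripts above 0 in both and Spearman's rho = 0.94, across transcripts that share their libraries. The 22 highest transcripts of each replicate had 16 in common. High values were few, since 5 of 86 UGAG transcripts exceeded 0.3 in both replicates, against 19 of 81 for UGAA, 7 of 22 for UGAU and 16 of 38 for UGAC.

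The spread between transcripts was also estimated over all 1001, from the covariance of the 2 replicates, which leaves counting error out. Transcripts weigh in this estimate by about the square of their expected reads, so the most abundant ones dominate it. In G418 the coefficient of variation of RRTS was 43.5% for UGAG, 52.9% for UGAA, 73.6% for UGAC and 86.8% for UGAU, given as a description with no test. In untreated cells the values were 74.7% for UGAG, 74.0% for UGAA, 105% for UGAC and 123% for UGAU. Without such weights, the SD of log2 RRTS in G418 A and B was 1.07 and 0.886 for UGAG and 0.939 and 1.04 for UGAA. It was 1.87 and 1.87 for UGAC and 1.39 and 1.57 for UGAU, over well measured transcripts above 0 in both. By this measure UGAG was not steadily below UGAA.

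**Figure D2:**
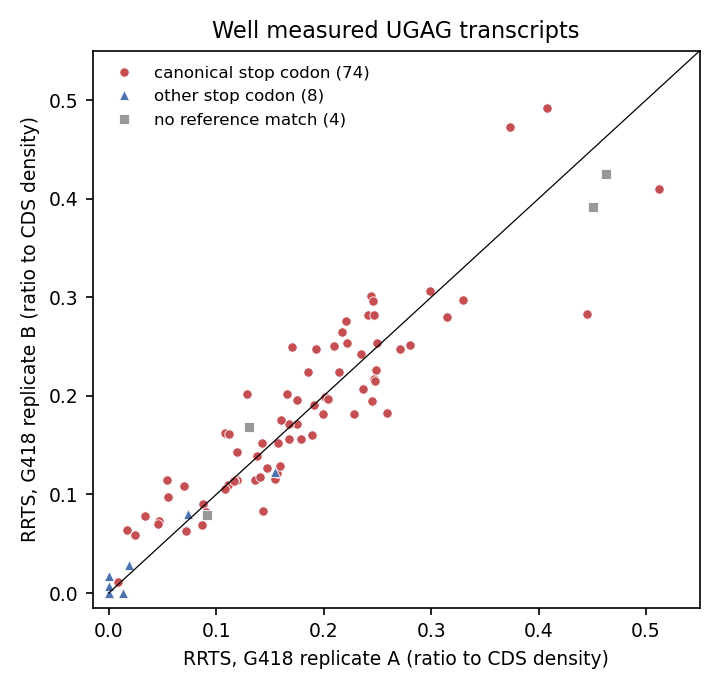
RRTS of the 86 well measured UGAG transcripts in G418 replicate A (x axis) against G418 replicate B (y axis), both as ratios to CDS density, with the line of equality. Circles are transcripts whose listed stop codon is that of the canonical transcript, triangles are the 8 whose listed stop codon is another, and squares have no match in the reference. The 74 circles have a median of 0.173 in replicate A and the triangles a median of 0.00649.

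The 8 highest and 8 lowest of these were named by G418 replicate A, so that replicate B is a separate measurement of them. CIAO1, a component of the cytosolic iron-sulfur assembly machinery, had an RRTS of 0.0140 and 0.0151 in untreated A and B, and of 0.512 and 0.409 in G418 A and B, on 71 and 48 reads. SF3B3, a subunit of the U2 snRNP complex SF3b, had 0.0189, 0, 0.408 and 0.491 in the same order. PSMD8, a subunit of the regulatory particle of the proteasome, had 0.020, 0.0160, 0.463 and 0.425. For these genes G418 replicate B, which was not used to choose them, lay far above both untreated libraries.

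HNRNPA2B1, an RNA-binding protein of the spliceosomal hnRNP family, had the most reads of the highest 8, with 28 and 8 in untreated and 287 and 204 in G418 A and B, which gave RRTS of 0.0367, 0.0308, 0.451 and 0.391. Its relative HNRNPAB had 0.0112, 0.0274, 0.329 and 0.297. Fitted log2 fold changes of readthrough were 3.58 ± 0.203 (SE) for HNRNPA2B1 and 4.25 ± 0.40 for HNRNPAB (edgeR adjusted p = 6.0e-66 and 1.1e-24). Fits of the highest 8 include G418 replicate A, by which they were chosen, so their p-values are a description. COX5B, a subunit of cytochrome c oxidase, was the exception in untreated cells, where its RRTS was already 0.0736 and 0.0616 before it reached 0.445 and 0.283, and its log2 fold change was 2.39 ± 0.230 (edgeR adjusted p = 8.6e-24). HIST1H3H, a histone H3 gene whose region counts only 12 nt, had 0.0131, 0.0188, 0.373 and 0.473, and CBR1, a carbonyl reductase, had 0.0134, 0.010, 0.314 and 0.280. Histone genes have near-identical copies, so the split of reads among them is uncertain.

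At the low end, RPL23 and RPL15, proteins of the large ribosomal subunit, had no read before the first 3′TC in any of the 4 libraries. At their CDS densities 3 reads would make an RRTS of 0.00240 for RPL23 and 0.00630 for RPL15 over both G418 libraries. Neither listed stop codon is that of the canonical transcript, so CDS density need not measure the ribosomes that reach these stop codons. NDUFB2, of respiratory complex I, and DAZAP2, a small proline-rich protein, had no read in G418 replicate A and 2 and 1 reads in replicate B. WLS, which carries Wnt proteins to the cell surface, had 2 reads in G418 replicate A and 0 in B, beside 1 and 0 in untreated cells. MRPS25, of the mitochondrial small ribosomal subunit, had RRTS of 0.0131 and 0.0321 in untreated and 0.0193 and 0.0280 in G418 A and B, so its groups overlapped (log2 fold change 0.32 ± 0.983, edgeR adjusted p = 0.76).

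S100A11, a calcium-binding protein, had 0 and 0 reads in untreated cells and 2 and 2 in G418, an RRTS of 0.00893 and 0.0115. AP2S1, the small subunit of the AP-2 clathrin adaptor, had no untreated read and 6 and 17 reads in G418, an RRTS of 0.0173 and 0.0635. Its rise was at least 5.34-fold, taking 3 reads over both untreated libraries as the floor (edgeR adjusted p = 6.3e-05). AP2S1 met the minimum of reads for this test through its G418 reads alone, so this p-value is a description. Its value in G418 replicate B was the highest of the 8 low genes there.

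**Figure D3:**
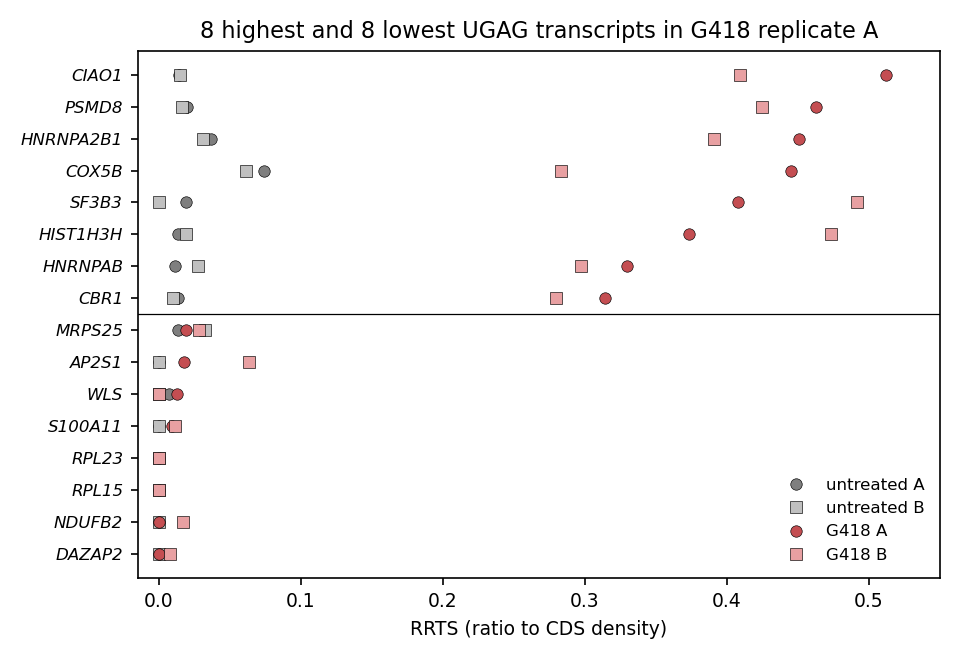
RRTS (x axis, ratio to CDS density) of the 8 highest and 8 lowest well measured UGAG transcripts by G418 replicate A (y axis), with 1 point per library. The highest 8 keep G418 replicate B between 0.280 and 0.491, and the lowest 8 keep it at or below 0.0635.

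Most of the low genes shared a feature of annotation that the rule did not use. Each table lists a single transcript per gene, and for 1276 of the 1384 UGAG transcripts that matched GENCODE 44 the listed stop codon was that of the gene's canonical Ensembl transcript, while for 108 it was another. Of the 8 lowest genes, 6 had such another stop codon (RPL23, RPL15, NDUFB2, DAZAP2, WLS and MRPS25), whereas S100A11 and AP2S1 had the canonical one. Of the 8 highest, all 6 that matched had the canonical one, and PSMD8 and HNRNPA2B1 had no match. Among the 86 well measured transcripts 74 had the canonical stop codon and 8 another, and the remaining 2 of these 8 were ANAPC11, of the anaphase promoting complex, with RRTS of 0.154 and 0.123, and CDKN2A, a cell cycle inhibitor, with 0.0736 and 0.0798. This split was made after the values were seen, and it carries no test.

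Over all UGAG transcripts with enough reads, the aggregate RRTS in G418 was 20.7% ± 0.0251 for the 897 canonical stop codons and 4.45% ± 0.570 for the 66 others (SD, n = 2), with untreated values of 1.92% ± 0.0538 and 0.771% ± 0.0598. Among the 66, the region before the first 3′TC lay wholly in exons of the canonical transcript for 36, and these had 6.72% ± 0.970 in G418. It lay wholly outside them for 30, and these had 0.307% ± 0.0971, with no G418 read in 83.3% of them against 8.03% of the canonical ones. Over all stop codons under the same limits the order was alike, with 20.4% for 5036 canonical and 4.07% for 393 other stop codons. CDS reads in exons that both transcripts share count in the denominator of RRTS, and their part in these values was not tested. With canonical stop codons only, the log2 ratio of G418 to untreated for UGAG was 3.43, as against 3.42 for all.

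**Figure D4:**
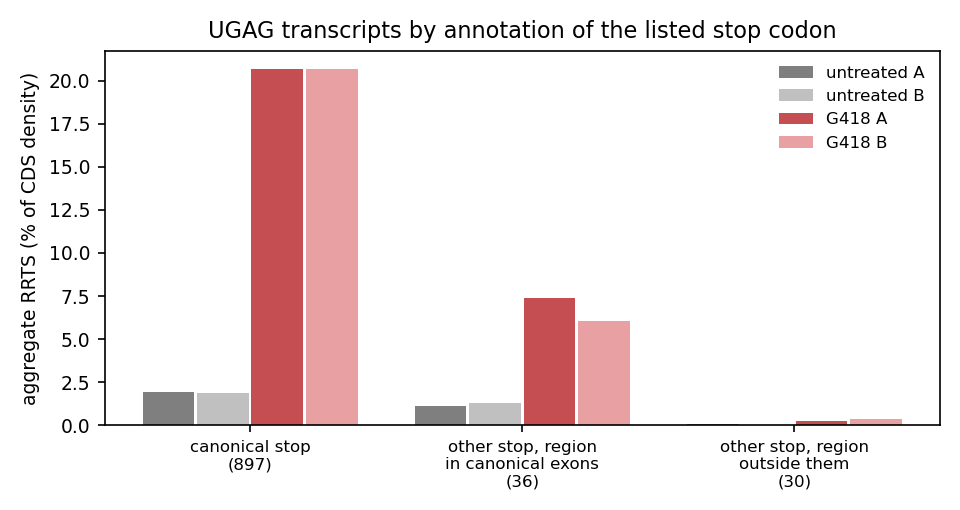
Aggregate RRTS of UGAG transcripts (y axis, percent of CDS density) by whether the listed stop codon is that of the canonical transcript and, if not, whether the region before the first 3′TC lies in canonical exons (number of transcripts in brackets). Each bar is 1 library. The G418 means fall from 20.7% to 6.72% and 0.307%.

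A test of each transcript asked whether its reads before the first 3′TC, relative to CDS reads, changed with G418. It took transcripts with at least 10 such reads, which most reached through their G418 reads, so the count of changed transcripts among them is a description only. Of 425 UGAG transcripts tested, 369 rose and 0 fell at an edgeR adjusted p of 0.05, beside 82.6% of all 2827 transcripts tested that rose and 0.0707% that fell. With no minimum of reads 419 of 888 rose, beside 2609 of all 5815 transcripts tested. No UGAG transcript fell at an unadjusted p of 0.05 in edgeR, and none fell by DESeq2. Falls were as rare elsewhere, with 2 and 1 of all 2827 transcripts in these 2 counts. The median log2 fold change was 3.54 for UGAG and 3.18 for all. Of the 86 well measured transcripts, which were chosen without regard to these reads, 79 rose, 91.9% as against 86.3% of all well measured transcripts, and in 80 both G418 values exceeded both untreated values, beside 90.8% of all. The 7 that did not pass were the low genes above other than AP2S1, and 6 of these had too few reads for the test.

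The largest fitted rises belonged to transcripts with no untreated read. PHB, the mitochondrial scaffold protein prohibitin, had 55 and 58 reads in G418 A and B, an RRTS of 0.220 and 0.276. This was at least 31.1-fold higher than 3 reads over both untreated libraries would give. EIF4H, a partner of the helicase eIF4A, reached 0.112 and 0.161 (at least 22.8-fold), CCDC124, a ribosome-binding protein, reached 0.143 and 0.0831 (at least 15.8-fold), and DEK, a chromatin protein, reached 0.835 and 0.719 (at least 14.3-fold). The region of DEK counts only 15 nt. These genes were picked as the largest rises of the same fit, so their values are a description, and their fitted fold changes depend on its prior count.

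The untreated libraries had a few UGAG transcripts with substantial density before the first 3′TC. Among the 30 with at least 10 such untreated reads, the 5 highest were PMAIP1 (the pro-apoptotic protein NOXA), GPX8 (a peroxidase of the endoplasmic reticulum), CALCOCO2 (an autophagy receptor), CHMP2A (of the ESCRT-III complex) and COPS9 (of the COP9 signalosome). They were chosen by untreated values that the fit also uses, which favors a small fitted change, so their tests are a description. PMAIP1 had RRTS of 0.330 and 0.288 in untreated and 0.476 and 0.307 in G418 A and B. The groups overlapped, and the change did not pass the test (log2 fold change 0.31 ± 0.495, edgeR adjusted p = 0.54). Its listed stop codon is not the canonical one. CHMP2A had 0.236, 0.0556, 0.145 and 0.355 and did not pass either (0.46 ± 0.622, edgeR adjusted p = 0.48), nor did GPX8 with 0.234, 0.143, 0.523 and 0.258 (0.92 ± 0.456, edgeR adjusted p = 0.051), although GPX8 passed without G418 replicate B, with at least 30 reads (edgeR adjusted p = 0.035) and with the replicate letter as a block (1.09, edgeR adjusted p = 0.043).

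CALCOCO2 and COPS9 rose from high starting levels. CALCOCO2 had 0.194 and 0.159 in untreated and 0.684 and 0.683 in G418 A and B, a log2 fold change of 1.88 ± 0.445 (edgeR adjusted p = 7.5e-05). COPS9 had 0.117, 0.170, 0.336 and 0.331, a log2 fold change of 1.30 ± 0.342 (edgeR adjusted p = 0.00036), which DESeq2 did not call. Both have the canonical stop codon.

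The genes with the most CDS reads differed among themselves. ATP5F1B, the beta subunit of ATP synthase, had RRTS of 0.0265 and 0.0243 in untreated and 0.175 and 0.171 in G418 A and B. CCT3, of the chaperonin TRiC, had 0.00554, 0.00548, 0.157 and 0.122 in that order. The translation initiation helicase EIF4A1 had a single read over both untreated libraries and 58 and 75 reads in G418, an RRTS of 0.128 and 0.202. The log2 fold changes were 2.74 ± 0.239 for ATP5F1B and 4.64 ± 0.284 for CCT3 (edgeR adjusted p = 1.0e-28 and 1.9e-56). HIST2H2BE, a histone H2B gene, contributed the most G418 reads of any UGAG transcript, 715 or 3.79% of the total, with RRTS of 0.00768, 0.00706, 0.175 and 0.195.

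Gene groups with several UGAG members are given next by their aggregate RRTS, as a description with no test between groups. The 6 cytosolic ribosomal protein genes (of 64 in the tables) had an aggregate RRTS of 7.94% and 8.33% in G418 A and B, and 2 of them, RPL15 and RPL23, are low genes with another stop codon. RPL10 had RRTS of 0.0335 and 0.0786 in G418, whereas RPL35 had 0.271 and 0.248, above the upper quartile of the well measured transcripts. The 5 mitochondrial ribosomal protein genes had 5.31% and 7.84%, with MRPS21 at 0.0467 and 0.0735. In contrast the 9 splicing factor genes had 33% and 31.1%, and the 3 proteasome genes 28.3% and 30.3%.

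Beside the mean of 19.7% over all UGAG transcripts, the 12 respiratory chain and ATP synthase genes had 18.7% and 16.3% in G418, with COX4I1 at 0.179 and 0.156, and the 10 translation factor genes had 14.0% and 18.4%, with EIF4G1, the scaffold of eIF4F, at 0.166 and 0.202. Of the 5 chaperone genes 3 had enough reads, and these had 17.3% and 15.1%, with CCT7 at 0.202 and 0.199. The 4 aminoacyl-tRNA synthetase genes had 18.2% and 23.8%. The 41 ZNF genes are weakly covered, since 10 had enough reads, and they had no untreated read and 43.1% and 43.6% in G418. Of the termination and recycling factors only MCTS1, which with DENR recycles small ribosomal subunits, ends in UGAG under these limits. It had no untreated read and 11 and 3 reads in G418, an RRTS of 0.179 and 0.0564, at least 3.94-fold over the floor (edgeR adjusted p = 0.00069). MCTS1 met the minimum of 10 reads through its G418 reads alone, so this p-value is a description.

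The sequence around UGAG was not that of short regions at large. A C at position -1, the last nucleotide before the stop codon, was found in 52.1% of UGAG transcripts against 33.6% of the 6217 other transcripts with a region within the same limits and a matching reference. A G at +5 was found in 35.6% against 25.3%, although UGAA had 39.4%, and the share with a C at -1 was 39.3% for UGAA and 38.5% for UGAC. The stretch from +5 to +15 had 8 or more C and G in 39.0% against 18.5% (15.7% for UGAA and 29.8% for UGAC), and the counted region was over 100 nt long in 30.2% against 21.4% of 6452 (20.8% for UGAA and 26.9% for UGAC). UGAG transcripts were thus richer in C and G after the stop codon and longer to the first 3′TC, given as shares with no test.

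Within UGAG, 22 classes of flanking nucleotide, C and G content, 3′TC and length were compared with the other UGAG transcripts in each library. For 18 of them the direction was the same in 4 of 4 libraries, 10 higher and 8 lower, and 4 libraries allow no p under 0.13 (exact sign-flip permutation test, 0.153 after Benjamini-Hochberg adjustment over the classes). All 4 libraries hold the same transcripts, so an equal direction shows only that values of these transcripts repeat. Classes of the same feature are also complementary. The 97 transcripts with a U at -1 had the highest class value, 28.9% and 30.4% in G418 A and B against 18.8% and 18.7% for the rest, and 3.12% and 2.26% in untreated A and B against 1.78% and 1.77%. Those with a G at -1 had 17.3% and 16.7% in G418, against 20.6% and 20.9% for the rest. An A at +5 went with 23.6% and 22.7% in G418, against 18.5% and 18.7%, and with 2.75% and 2.52% in untreated cells, against 1.67% and 1.64%.

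Few C and G after the stop codon also went with a higher value. Transcripts with at most 5 C or G from +5 to +15 had 24.7% and 24.7% in G418, against 18.3% and 18.2% for the rest. Length went the other way, since regions of up to 30 nt had 24.4% and 26.3% and those over 100 nt had 17.8% and 17.6% in G418. In untreated cells the latter had 1.25% and 1.23%, against 2.49% and 2.41% for shorter ones. A U at +6 had 26.0% and 24.6% in G418 against 18.7% and 18.8%, but with each transcript weighted equally its mean log2 ratio over the 4 libraries turned from 0.46 to -0.10. The identity of the first 3′TC showed no steady order for UAA, whose ratio to the rest was above 0 on the log2 scale in 2 of 4 libraries. The classes overlap in transcripts and their parts were not told apart.

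**Figure D5:**
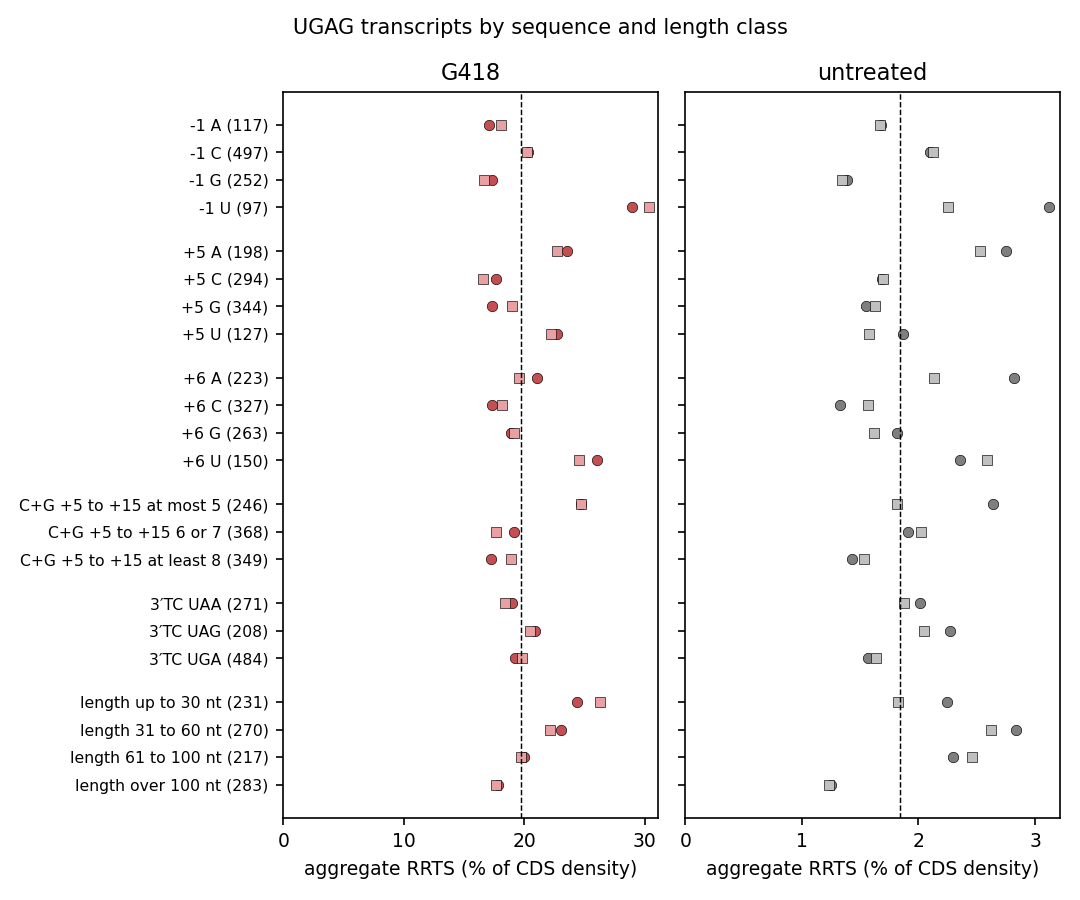
Aggregate RRTS (x axes, percent of CDS density) of UGAG transcripts in classes of flanking nucleotide, C and G content, first in-frame 3′TC and counted length (y axis, with the number of transcripts), in G418 (left) and untreated cells (right). Circles are replicate A and squares replicate B, and the dashed lines are the UGAG means of 19.7% and 1.84%. A U at -1 lies farthest right in G418, at 28.9% and 30.4%.

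At the length limit itself, 34 UGAG transcripts with 189 to 198 nt to the end of the first 3′TC had an aggregate RRTS of 14.4% in G418 and 1.40% in untreated cells, from the 24 with enough reads. The 27 just outside, with 201 to 210 nt, had 19% and 1.67%, from 15.

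CDS reads, relative to those of the other transcripts in a library, changed for few UGAG transcripts. Counts were normalized between libraries, so a change in translation common to all transcripts was not measured. Of 1293 tested, 76 (5.88%) had more and 44 (3.4%) had fewer CDS reads in G418 at an edgeR adjusted p of 0.05, close to the 5.31% and 3.21% of all 8494 transcripts tested. These calls rest on all 4 libraries and their number moved widely with the library left out. DESeq2 called 23 and 22, beside 113 and 140 of all 8494. With 1 library left out 1 condition keeps a single library, so the calls of those fits are not counted here.

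The largest rises were in weakly translated genes. REEP2, a protein that shapes the endoplasmic reticulum, had 18 and 10 CDS counts in untreated and 58 and 56 in G418 A and B (log2 fold change 1.64 ± 0.292, edgeR adjusted p = 0.00036). GPR157, a G protein-coupled receptor, had 12, 5, 20 and 36, and IGFBP4, which binds insulin-like growth factors, had 9, 4, 25 and 18 (edgeR adjusted p = 0.037 and 0.042). DESeq2 called none of these 3. GPR157 and IGFBP4 also lost their calls without untreated replicate A or without G418 replicate B, and IGFBP4 without G418 replicate A.

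The largest falls included abundant transcripts. PLEC, the cytolinker plectin, went from 86.6 and 113 RPM on its CDS (scaled to mRNA reads) in untreated to 58.3 and 54.8 in G418 A and B (log2 fold change -0.87 ± 0.124, edgeR adjusted p = 3.2e-05). ATP5MC1, a subunit c gene of ATP synthase, went from 343 and 342 to 235 and 241 (-0.61 ± 0.0898, edgeR adjusted p = 4.1e-05), while its RRTS rose from 0.0116 and 0.0174 to 0.247 and 0.215. The transcription factor gene DEAF1 went from 30.7 and 36.5 to 23.2 and 22 (-0.62 ± 0.158, edgeR adjusted p = 0.011), a call that DESeq2 did not make and that was lost without either G418 library. The call for ATP5MC1 was lost without G418 replicate A. Of the 6 cytosolic ribosomal protein genes, 5 had fewer CDS reads, with a median log2 fold change of -0.32, where 3.21% of all transcripts tested fell. The same held for 2 of 4 synthetase, 2 of 9 splicing, 2 of 12 respiratory, 1 of 10 translation factor and 1 of 5 mitochondrial ribosomal genes, and 1 of 3 proteasome genes had more. With DESeq2 size factors 5 cytosolic ribosomal genes also fell, while 0 passed without G418 replicate A and 1 without G418 replicate B.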

How the data were processed

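RPFs were sequenced from 4 HEK293T libraries, and those of 28 to 35 nt were analysed. The authors collapsed duplicate molecules, removed noncoding RNA, aligned to hg38 (STAR, with GENCODE version 30) and kept 1 alignment of reads that map to several places and 1 transcript per gene. The deposited counts are raw RPFs per region. The authors' RPM values scale these RPFs to the mapped reads of a library, and the deposited RPKM values divide RPM by region length. RRTS was deposited as a ratio of densities, as was occupancy of the whole 3′UTR. A deposited score, the 5′UTR density, was left out.

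Whole reads were recovered from RPM (100% of values whole within 0.001) and used for readthrough. CDS density leaves out 18 nt at the start and 15 nt at the end. Deposited CDS counts were tested with edgeR 4.0.16 (TMM normalization, filter on low counts, quasi-likelihood test), and reads before the first 3′TC with CDS reads plus 0.5 as offset and at least 10 reads. All p-values were adjusted by Benjamini-Hochberg over all transcripts tested, with a threshold of 0.05. DESeq2 1.42.0, other minima and scalings, single libraries left out and the replicate block were alternatives. On simulated data edgeR recovered 72.5% of changed readthrough values over 1148 transcripts and 83.0% of changed CDS counts over 8494. DESeq2 recovered 34.5% and 66%. The simulations fixed the size of the change and the spread between libraries. The readthrough simulation took only transcripts with at least 30 reads, so it does not give the recovery of the test at 10 reads. Contexts and coordinates came from GENCODE 44 where CDS length, stop codon and first 3′TC matched, for 1384 of the 1437 transcripts and 963 of the 1001 with enough reads. The canonical stop codon is that of the Ensembl canonical transcript there.

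Named are the 8 highest and 8 lowest well measured transcripts by G418 replicate A, the 5 highest in untreated cells, the 4 largest fitted rises (no member fell), the 5 with most CDS reads, 2 of each gene list with most CDS reads, termination factors, and the 3 largest rises and falls of CDS counts. HIST2H2BE, ANAPC11, CDKN2A and RPL35 were added after their values were seen, and 1 gene that this rule names is not reported here. The members and lists were chosen with earlier results of these data known. Nothing was sampled over transcripts, and P-values of tests between conditions measure the spread between 2 libraries per condition. Sign-flip tests run over all 4 libraries of both conditions, so the SD over 4 libraries includes any difference between conditions. The minimum of about 130 mRNA reads is the study's. Further tools were pandas 2.3.3, scipy 1.17.1, numpy 2.4.6 and matplotlib 3.10.9 (Python 3.11.15), and R 4.3.3.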

Additional observations from a re-analysis of the deposited data

How the results depend on the processing

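Depth limits the untreated values, and 2 libraries per condition limit every test. Of UGAG transcripts with enough mRNA reads in untreated A or B, 61.6% and 68.8% had no read before the first 3′TC in that library. Of the 1001 with enough reads in each condition, 55.3% had none in either untreated library. The aggregate ratio of G418 to untreated (3.42 on the log2 scale), the order of UGAG below UGAA, UGAC and UGAU, the narrower gap to UGAA and UGAC in G418 and the drop after the first 3′TC kept their direction under each alternative run. The response of UGAG against UGAU (0.11) turned to -0.090 with each transcript weighted equally, to -0.12 with canonical stop codons only, and ranged from -0.068 to 0.29 with 1 library left out. The coefficient of variation in G418 (43.5%) was 48.9% without HIST2H2BE, 37.0% with canonical stop codons only and 43.7% to 45.4% with 1 library. The count of UGAG transcripts with more readthrough (369) was 233 by DESeq2, 160 of 163 tested with at least 30 reads (a construction that tests fewer transcripts), and 211 to 359 with 1 library left out. Counts of CDS calls (76 higher, 44 lower) were 23 and 22 by DESeq2, and 7 to 177 and 1 to 145 with 1 library left out. Over all transcripts, DESeq2 called 1408 of 2827 for more readthrough, and 113 and 140 of 8494 for more and fewer CDS reads. The cause of these shifts in counts was not tested.

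Samples of both conditions share the letters A and B. Deviations of same-lettered samples correlated by 0.138 for CDS counts and -0.027 for readthrough, so the letters are not shown to pair samples. With the replicate block, 294 of 425 UGAG transcripts had more readthrough, beside 1852 of all 2827. Of 1293 UGAG transcripts, 101 had more and 77 had fewer CDS reads, beside 618 and 452 of all 8494. The aggregate log2 ratio was 3.42 with the block.

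Of the classes, those whose mean log2 ratio changed sign were, with equal weights, -1 A (0.30), +5 U (-0.0017), +6 U (-0.10) and 61 to 100 nt (-0.039). With regions of at most 100 nt they were -1 A (0.10), +6 G (0.061), 3′TC UAA (-0.32), 3′TC UGA (0.086), up to 30 nt (-0.026) and 61 to 100 nt (-0.18). With at least about 510 mRNA reads it was 6 or 7 C and G (-0.00034). With 1 library left out, 3′TC UAA ranged from -0.030 to 0.064, 6 or 7 C and G from -0.081 to 0.11 and +5 U from -0.0039 to 0.16. Of single genes, the log2 fold change of readthrough turned for PMAIP1 (-0.052 to 0.57) and CHMP2A (-0.32 to 2.09). The test of readthrough on deposited counts was not run, since the raw counts used here do not split the 3′UTR at the first 3′TC, and a ratio of median RRTS could not be formed over an untreated median of 0.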
